A study of Mus musculus and Homo sapiens with 18 samples.

Results

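The smooth muscle contractile genes described here are 10 genes, out of 55858 measured in the mouse tables: Acta2, Tagln, Cnn1, Myl9, Myh11, Cald1, Tpm1, Tpm2, Srf and Myocd. They were chosen by symbol, with the differences between the groups below already known, so their own values are given as a description without a test. The study profiled RNA from bladder carcinoma. Every one of the 10 genes was listed in the 12 mouse libraries used, which form 4 sets of 3 replicates. Tumours from a genetically engineered mouse (GEMM) were labelled chemotherapy, which the design text describes as relapsed and the protocol as treated with cisplatin and gemcitabine, or control, for which the protocol names a vehicle. The mouse line CUUC-G, labelled GEMM as its cell line, carried either the guide sgIgfbp5 or, as its control, sgScr. The target, Igfbp5, encodes an extracellular protein that carries IGF. The sgIgfbp5 samples are called knockdowns in the labels, whereas the design text speaks of knockouts. The driver alleles, promoter or Cre of the model, its strain, sex and age, doses and times, and whether the line is 1 clone are not given in the sources used here. The labels also do not say whether replicates came from separate animals or cultures, so p-values measure the spread between these libraries, which may be technical. The 6 human MGHU3 libraries of the series were not analysed here, because their transcript identifiers are not paired with genes in the files.

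Contraction of smooth muscle depends on sliding of actin filaments, containing smooth muscle alpha-actin (Acta2), past filaments of smooth muscle myosin (heavy chain Myh11, regulatory light chain Myl9). Phosphorylation of the light chain by myosin light chain kinase starts contraction, and myosin phosphatase ends it. Calponin (Cnn1), caldesmon (Cald1), transgelin (Tagln) and tropomyosins (Tpm1, Tpm2) bind the actin filament and stabilise it or restrain the myosin. Many of these genes are switched on by serum response factor (Srf), which binds a DNA element called the CArG box with a cofactor: myocardin (Myocd), found in smooth and cardiac muscle, or the actin-sensing myocardin-related factors Mrtfa and Mrtfb, found in most cells. Activated fibroblasts and many mesenchymal cells in culture also express Acta2, Tagln, Cnn1 and the tropomyosins, whereas Myh11 and Myocd are more restricted to the smooth muscle lineage.

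A promoter was in the RefSeq table for 7 of the 10 members (8 promoters, GRCm38.p6). Those of Acta2, Myl9 and Srf are shown because these 3 held the element that Srf binds or a site like it. Levels of these 3 differed between groups, as did those of members without a site, such as Cnn1. A link between site and level was not tested. Each run gives the 250 bases before the RefSeq start, 5′ to 3′ on the gene's strand. Capitals mark a CArG box, which is CC, then 6 bases that are A or T, then GG, or a CArG-like site with 1 C or G among the 6.
Acta2 (chr19:34255374-34255623, minus strand): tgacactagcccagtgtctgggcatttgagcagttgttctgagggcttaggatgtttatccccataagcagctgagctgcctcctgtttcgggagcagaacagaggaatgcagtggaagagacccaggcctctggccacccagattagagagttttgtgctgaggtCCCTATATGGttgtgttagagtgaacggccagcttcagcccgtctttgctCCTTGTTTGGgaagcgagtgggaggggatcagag
Myl9 (chr2:156775214-156775463, plus strand): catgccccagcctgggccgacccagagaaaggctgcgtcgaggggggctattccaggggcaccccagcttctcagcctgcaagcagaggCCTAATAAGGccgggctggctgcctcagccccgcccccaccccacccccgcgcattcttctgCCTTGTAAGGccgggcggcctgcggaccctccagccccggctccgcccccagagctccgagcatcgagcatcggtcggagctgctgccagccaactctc
Srf (chr17:46556163-46556412, minus strand): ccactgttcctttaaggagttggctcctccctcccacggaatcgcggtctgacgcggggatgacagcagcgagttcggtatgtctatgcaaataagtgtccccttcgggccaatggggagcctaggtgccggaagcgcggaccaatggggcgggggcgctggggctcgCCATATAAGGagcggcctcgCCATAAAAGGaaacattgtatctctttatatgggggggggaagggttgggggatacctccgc
The search used 300 bases, 250 before to 50 after the start, and the form of the site makes it the same on both strands. The Srf promoter held 2 CArG boxes, CCATATAAGG from 82 to 73 and CCATAAAAGG from 62 to 53 bases before the start. Myl9 held 1 CArG box, CCTAATAAGG, from 161 to 152 bases before the start and 1 CArG-like site, CCTTGTAAGG, from 99 to 90. Acta2 held 2 CArG-like sites, CCCTATATGG from 84 to 75 and CCTTGTTTGG from 34 to 25 bases before the start. Of all 32851 promoters in the table, 1.63% held a CArG box, 8.499% a CArG-like site and 9.98% either. Neither form was in this window of Cnn1, Tpm1, Tpm2 or the 2 promoters of Cald1. The promoters of Tagln, Myh11 and Myocd were not in the table.

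On GRCm38, with positions from GENCODE M21, Acta2 lies on chr19:34241090-34255590, Tagln on chr9:45929619-45936058, Cnn1 on chr9:22099216-22109630, Myl9 on chr2:156775420-156781658 and Myh11 on chr16:14194535-14291372. Cald1 lies on chr6:34598500-34775473, Tpm1 on chr9:67022590-67049406, Tpm2 on chr4:43514711-43523765, Srf on chr17:46548329-46556175 and Myocd on chr11:65176561-65269989. Tagln overlaps Pcsk7 and the antisense gene Gm48529 on the other strand, and Cald1 overlaps 3 non-coding genes on the other strand. Srf overlaps the non-coding gene Gm26904 on the other strand and the microRNA gene Mir6976 on the same strand. Acta2 has near-identical coding relatives in Actg2 and Acta1, and Myl9 in Myl12a and Myl12b, so the split of reads within those families is an estimate.

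Library totals were 18964900 to 21757100 estimated counts in the tumours and 19210800 to 20730000 in CUUC-G. The targeted gene, Igfbp5, had 27 counts over the 3 control and 149 over the 3 relapsed libraries, and 114 in sgScr against 30 in sgIgfbp5. In the same order it averaged 0.163, 0.589, 0.443 and 0.118 TPM, so it was under 1 TPM with the control guide too. Whether the differences between sgIgfbp5 and sgScr cells came from the loss of Igfbp5 was not tested. The Y-linked gene Ddx3y had 4503 counts over the control tumours and 0 over each of the 3 other groups. Control and relapsed tumours thus differed in a Y-linked gene as well as in treatment. Differences with treatment and with the origin of the samples cannot be told apart here. Below, genes that rose or fell at relapse are those higher or lower than in the control tumours. Across 13904 genes the log2 mean TPM of the relapsed tumours and of sgScr CUUC-G had a Pearson's r of 0.996, against 0.916 for control tumours and sgScr, as a description across genes. Epithelial marker genes (12) summed to 17.7 to 23.2 TPM in the control tumours, with Krt8 at 1 count over the 3 libraries, and to 663 to 684 in the relapsed ones. Of the 8 tested at relapse, 6 were called higher and 1 lower, where 36.6% and 36.9% of all genes were. The lower one was Gata3, at 8.38 TPM in control and 0.825 TPM in relapsed tumours. Of the 12, 8 averaged under 1 TPM in control and 6 in relapsed libraries. Replicates varied more in CUUC-G, with a common biological coefficient of variation in edgeR of 0.0995 against 0.0522 in the tumours.

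Levels of different genes were compared in TPM (transcripts of a gene per 1000000 transcripts), which corrects for transcript length. The tumour and CUUC-G tables were normalised separately by the authors. In the control tumours the most abundant member was Acta2, at 1377 ± 42.7 TPM (SD, n = 3), followed by Cald1 at 986 ± 16.4, Tpm1 at 811 ± 25.8 and Tagln at 567 ± 20.5. Myl9 followed at 326 ± 27.1, then Tpm2 at 262 ± 2.54, Cnn1 at 148 ± 6.65 and Srf at 69.9 ± 4.14 TPM. The ranges of neighbours in this order did not overlap. Below them, Myh11 at 0.540 ± 0.0909 and Myocd at 0.287 ± 0.3601 TPM overlapped. The myosin heavy chain and the cofactor that define the smooth muscle lineage were thus under 1 TPM in tumours labelled as bladder.

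In the relapsed tumours the order was led by Tpm1 at 1021 ± 37.7 TPM, then Acta2 at 756 ± 16.4, Cald1 at 567 ± 6.90, Tagln at 332 ± 19.1, Tpm2 at 240 ± 7.84, Myl9 at 147 ± 4.09, Cnn1 at 86.3 ± 6.46 and Srf at 76.5 ± 4.64. Neighbours down to Srf again did not overlap. The sgScr line had the same 8 genes in the same order, from Tpm1 at 1054 ± 6.74 to Srf at 76.7 ± 6.97 TPM, with Cnn1 (79.6 ± 2.88) and Srf overlapping. In sgIgfbp5 cells Tpm1 (539 ± 11.7) and Cald1 (531 ± 69.5) led and overlapped, Acta2 stood at 123 ± 5.13 and Tpm2 at 84.3 ± 3.30. Srf, at 46.8 ± 1.501 TPM, was there above Tagln (28.2 ± 3.33), Myl9 (14.3 ± 1.79) and Cnn1 (3.67 ± 0.264). Myh11 was at 0.346 ± 0.112, 0.348 ± 0.129 and 0.0280 ± 0.0313 TPM in relapsed, sgScr and sgIgfbp5 libraries, and Myocd at 0.661 ± 0.734, 0.301 ± 0.265 and 0.133 ± 0.1198 TPM. Both lay lowest in all 4 groups, with overlapping ranges.

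**Figure D1:**
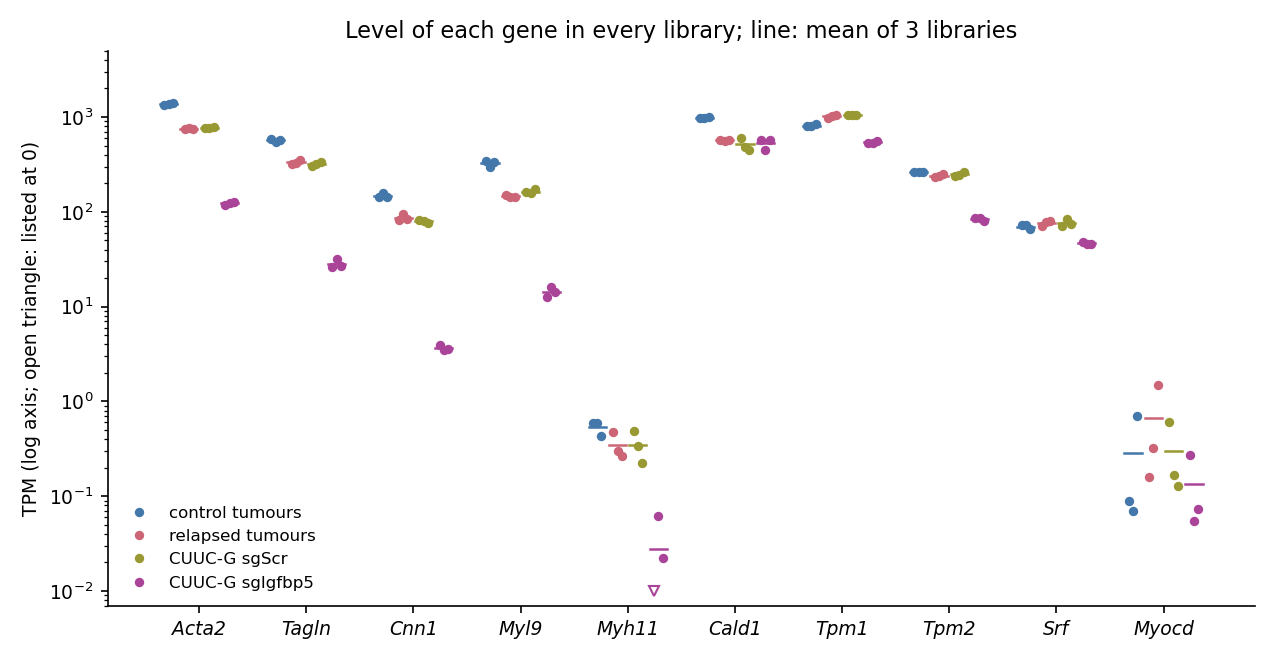
TPM of each of the 10 genes (log axis) in every library, coloured by group, with a line at the mean of the 3 libraries; an open triangle marks a library listed at 0. Acta2, Tagln, Cnn1 and Myl9 step down from control tumours to relapsed tumours and sgScr cells and again to sgIgfbp5 cells, while Cald1 in sgIgfbp5 overlaps sgScr and Myh11 and Myocd lie near or under 1 TPM throughout.

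The levels in relapsed tumours and in sgScr CUUC-G were close member by member. The ratio of mean TPM, relapsed over sgScr, was between 0.896 (Myl9) and 1.10 (Cald1) for 9 of the 10 members. Myocd, with 34 and 29 counts over 3 libraries, had a ratio of 2.20. Relapse replicate 3 was given 1.502 TPM for 7 counts of Myocd, against 0.322 TPM for 16 counts in replicate 2, so its TPM depends on the transcript to which few reads were assigned.

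The first comparison set relapsed against control tumours. Within a gene, values are given as CPM (counts per 1000000 counts of a library, with library sizes scaled by TMM), and fold changes are log2 differences of CPM with their SE from edgeR. Among the proteins of the filament, Acta2 was at 1472, 1477 and 1540 CPM in the control and 893, 917 and 911 CPM in the relapsed libraries. Each relapsed library lay below each control library, a log2 fold change of -0.72 ± 0.03 (SE). Myl9 had the largest difference of the 9 members fitted, from 186, 154 and 178 CPM to 88.5, 86.0 and 83.5 CPM, or -1.01 ± 0.06. The smooth muscle myosin heavy chain Myh11 had 55, 47 and 36 counts in control and 44, 28 and 25 in relapsed libraries, and these groups overlapped at -0.50 ± 0.31 (-0.79 without relapse replicate 1, -0.33 without relapse replicate 3, and -0.20 with limma on log2(TPM + 1) and no filter). In bulk RNA, fewer cells of a type and less RNA per cell cannot be told apart.

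The actin-binding proteins divided. Tagln, an early smooth muscle marker that crosslinks actin, was at 495, 450 and 483 CPM in control and 299, 296 and 296 CPM in relapsed tumours (-0.68 ± 0.03). Cnn1, an inhibitor of actomyosin, was at 106, 106 and 109 against 72.1, 78.2 and 68.6 CPM (-0.55 ± 0.05). The relapsed libraries were below the controls in each of these genes, without overlap. Cald1, which blocks myosin binding to actin until calcium rises, was at 1794, 1835 and 1816 CPM against 1160, 1186 and 1179 CPM (-0.63 ± 0.03). Tpm1 stood the other way, at 806, 737 and 771 CPM in control and 1035, 1054 and 1067 CPM in relapsed tumours (0.45 ± 0.03). Tpm2 overlapped, at 166, 160 and 165 against 159, 159 and 167 CPM (-0.01 ± 0.04; 0.0037 without relapse replicate 2). In TPM, however, each relapsed library of Tpm2 lay below each control library, at 234, 236 and 249 against 261, 259.8 and 265, with a log2 difference of -0.13 on log2(TPM + 1), where the median of all genes was -0.12. Tpm1 was thus higher at relapse on both scales, while Tpm2 overlapped in CPM and was lower in TPM.

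Among the regulators, Srf was at 82.5, 78.4 and 74.8 CPM in control and 106, 94.0 and 107 CPM in relapsed tumours (0.38 ± 0.05). In TPM, 71.7, 72.9 and 65.2 against 71.3, 78.0 and 80.2, its groups overlapped, and the log2 difference was 0.13 on log2(TPM + 1). Its cofactor Myocd had 6, 4 and 5 counts in control and 11, 16 and 7 in relapsed libraries and did not pass the filter on low counts. Of the 9 members that passed it, edgeR put 5 lower and 2 higher at an adjusted p under 0.05, where 73.5% of all 14373 genes tested were called, 36.6% higher and 36.9% lower. Myl9 was the 1 member called at least 2-fold lower, as were 12% of all genes. The groups' CPM ranges did not overlap in 7 of the 9, as in 75.3% of all genes (37.5% higher, 37.8% lower). The members were chosen with this contrast known, and nothing is read from these counts.

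**Figure D2:**
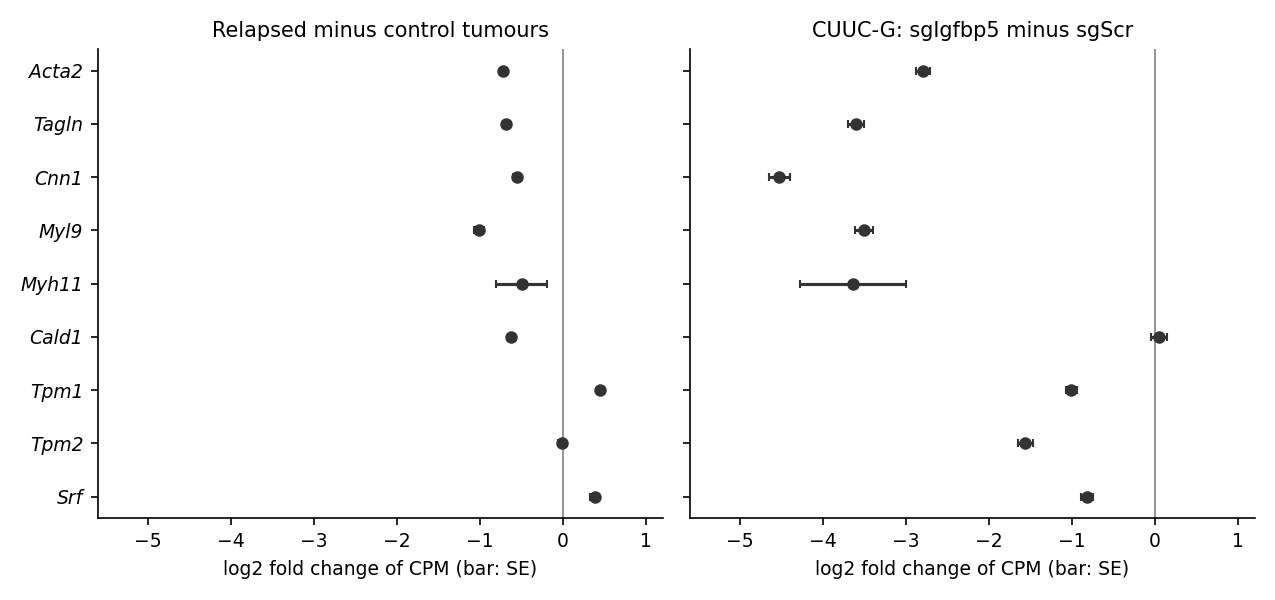
Log2 fold change of CPM (point) with its SE (bar) for the 9 members that passed the filter, for relapsed minus control tumours (left) and sgIgfbp5 minus sgScr CUUC-G (right), on 1 scale. On the left the values lie between -1.01 (Myl9) and 0.45 (Tpm1), and on the right between -4.52 (Cnn1) and 0.05 (Cald1).

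The second comparison set sgIgfbp5 against sgScr CUUC-G cells. Cnn1 had the largest difference, from 70.2, 78.3 and 78.1 CPM in sgScr to 3.58, 3.64 and 2.63 CPM in sgIgfbp5 libraries, a log2 fold change of -4.52 ± 0.12 (SE). Tagln was at 296, 321 and 354 CPM against 26.0, 29.5 and 24.6 CPM (-3.60 ± 0.10). The sgIgfbp5 libraries were below the sgScr ones in both, with no library between. Myl9 was at 89.8, 97.8 and 113 against 8.38, 9.34 and 8.83 CPM (-3.50 ± 0.11), and Acta2 at 932, 995 and 1058 against 140, 157 and 134 CPM (-2.79 ± 0.09). Acta2, 6.93-fold lower, was the second most abundant member by TPM with sgScr and the third with sgIgfbp5. Myh11 rested on few reads, with 44, 33 and 21 counts in sgScr and 0, 6 and 2 in sgIgfbp5 libraries (-3.64 ± 0.64; -3.11 without sgIgfbp5 replicate 1 and -5.01 without replicate 2; -0.39 with limma on log2(TPM + 1) and no filter).

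The tropomyosins were lower by less. Tpm1 was at 1086, 1098 and 1125 CPM in sgScr and 557, 563 and 523 CPM in sgIgfbp5 libraries (-1.01 ± 0.07), and Tpm2 at 173, 183 and 208 against 66.7, 66.5 and 57.6 CPM (-1.56 ± 0.09). Tpm1, which was higher in relapsed than in control tumours, was lower with sgIgfbp5. Cald1 was at 1203, 1087 and 1034 CPM in sgScr and 1280, 992 and 1168 CPM in sgIgfbp5 libraries. The groups overlapped, at 0.05 ± 0.10, and the sign turned when sgScr replicate 3 (-0.00075), sgIgfbp5 replicate 1 (-0.051) or sgIgfbp5 replicate 3 (-0.0015) was left out. Cald1 was thus the member whose CPM with sgIgfbp5 overlapped that with the control guide, beside Acta2, Tagln, Cnn1 and Myl9 that were 6.93- to 23.0-fold lower.

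Srf was at 109, 119 and 111 CPM in sgScr and 61.8, 66.2 and 64.1 CPM in sgIgfbp5 libraries (-0.82 ± 0.07), a 1.76-fold difference. Myocd had 8, 12 and 9 counts against 5, 2 and 5, again too few to be tested. Of the 9 members that passed the filter, edgeR put 8 lower and 0 higher, where 70.8% of all 14553 genes tested were called, 36.5% higher and 34.3% lower. A difference of at least 2-fold lower was called for 7 of them and for 16.8% of all genes. The CPM ranges did not overlap in 8 of the 9, as in 73.9% of all genes (38.1% higher, 35.8% lower). These counts, too, are for members chosen with the contrast known and support nothing.

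Most members belong to families with a non-muscle relative, and the mix of each family was followed as a share of its summed TPM. In the actins (Acta2, Actg2, Acta1, Actc1, Actb and Actg1), Acta2 made up 19.3% ± 0.430 (SD, n = 3) in control and 9.26% ± 0.305 in relapsed tumours. The cytoplasmic actins Actb and Actg1 went from 74.7% ± 0.524 to 90.5% ± 0.293, and the enteric smooth muscle actin Actg2 from 5.57% ± 0.0875 to 0.187% ± 0.0169. The summed actin level was higher at relapse, at 8164 ± 95.2 against 7118 ± 89.0 TPM. In CUUC-G, Acta2 made up 9.49% ± 0.215 with sgScr and 3.90% ± 0.0923 with sgIgfbp5, while the summed level went from 8151 ± 56.0 to 3153 ± 119 TPM. Both the muscle and the cytoplasmic actins were thus lower with sgIgfbp5, and Acta2 by more.

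Tagln made up 69.8% ± 0.208 of the 3 transgelins in control and 43.2% ± 1.74 in relapsed tumours, with summed levels of 811 ± 31.1 and 769 ± 15.0 TPM. In CUUC-G the Tagln share was 40.6% ± 1.83 with sgScr and 20.4% ± 1.23 with sgIgfbp5. Cnn1 was 24.5% ± 1.24, 14.0% ± 0.889, 12.6% ± 0.602 and 1.17% ± 0.112 of the calponins in control, relapsed, sgScr and sgIgfbp5 libraries. Myl9 was 24.2% ± 1.52, 14.4% ± 0.585, 14.4% ± 0.935 and 1.41% ± 0.122 of the 3 regulatory light chains in the same order. In each of these families the smooth muscle form had a smaller share in relapsed than in control tumours and in sgIgfbp5 than in sgScr cells. Tpm1 was the exception, with 34.6% ± 0.614, 39.3% ± 0.715, 41.3% ± 0.665 and 44.7% ± 0.746 of the 4 tropomyosins. Myh11 made up 0.117% ± 0.0215 of the 4 myosin heavy chains counted (with Myh9, Myh10 and Myh14) in control, 0.0959% ± 0.0330 in relapsed, 0.0917% ± 0.0267 in sgScr and 0.00806% ± 0.00919 in sgIgfbp5 libraries.

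**Figure D3:**
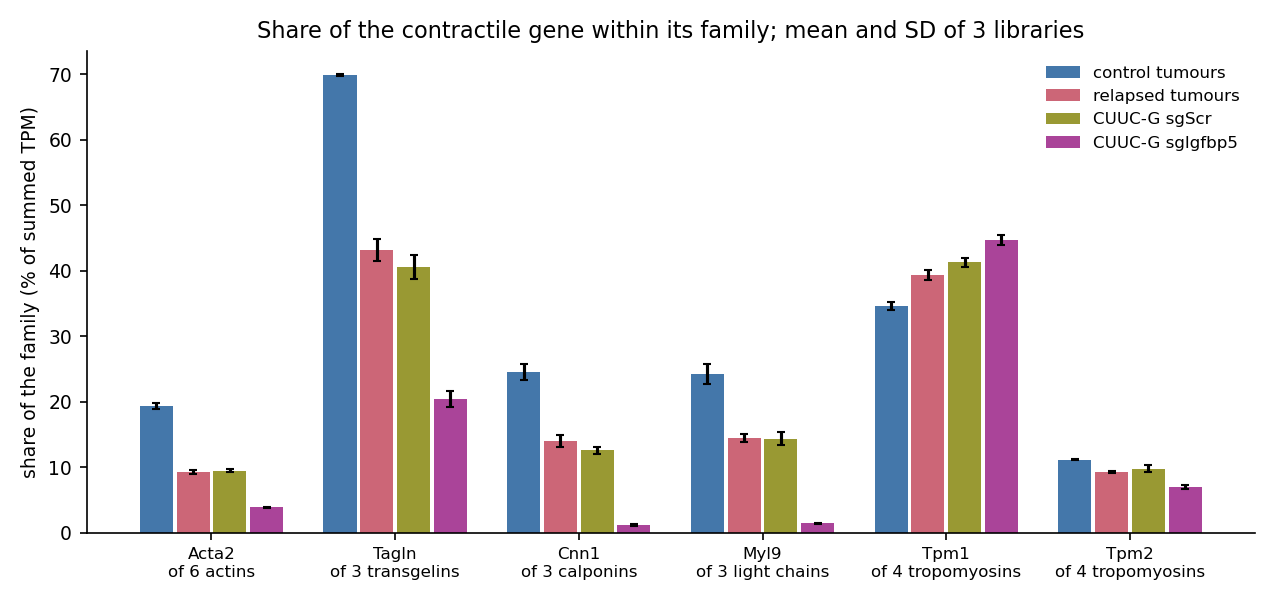
Share (% of summed TPM, mean and SD of 3 libraries) of Acta2, Tagln, Cnn1, Myl9, Tpm1 and Tpm2 within their families, by group. The shares of Acta2, Tagln, Cnn1 and Myl9 are highest in control tumours and lowest in sgIgfbp5 cells, and that of Tpm1 runs the other way, from 34.6% to 44.7%.

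The tumour table is given by transcript, which allows splice forms to be separated by coding length as far as short reads assign them. Coding length alone did not single out a smooth muscle form of Tpm1. For Tpm1, coding lengths from GENCODE M21 put 75.7% ± 4.93 of control and 75.3% ± 3.05 of relapsed TPM (SD, n = 3) in transcripts of at least 280 codons, and 17.4% ± 0.845 and 15.98% ± 0.572 in a class of shorter ones, such as Tpm1-211 with 248 codons. The balance of long and short tropomyosin therefore lay within the spread. Within the long forms, Tpm1-213 was at 34.8, 40.9 and 40.1 TPM in control and 153, 157 and 147 TPM in relapsed tumours, and its share of the gene was 4.76% ± 0.373 and 14.9% ± 0.936. Tpm1-215 went the same way, at 32.0, 30.4 and 23.8 against 55.3, 77.2 and 81.1 TPM. The leading form, Tpm1-216, overlapped, at 529, 468 and 488 against 525, 509 and 506 TPM, and its share was 61.1% ± 4.75 and 50.3% ± 2.88. The higher Tpm1 level of the relapsed tumours thus lay mostly in Tpm1-213 and Tpm1-215, which share their coding length of 284 codons with Tpm1-216.

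For Cald1, whose long form (h-caldesmon) marks differentiated smooth muscle, the 1 long transcript, Cald1-205 with 768 codons, held 1.60% ± 0.0474 of the gene's TPM in control and 3.11% ± 0.418 in relapsed tumours. Its level was 15.4, 15.4 and 16.7 TPM in control and 15.5, 20.0 and 17.4 TPM in relapsed libraries, and these overlapped. A class of 5 shorter transcripts, the form of non-muscle cells, such as Cald1-203 with 530 and Cald1-204 with 536 codons, held 73.4% ± 1.52 and 72.4% ± 1.24. Their summed level was 724 TPM in control and 411 in relapsed tumours, and that of 12 other transcripts was 247 and 139, so the lower Cald1 level lay in both. Of the 5, Cald1-203 averaged 375 ± 12.6 TPM in control and 217 ± 2.43 in relapsed tumours, and Cald1-204 315 ± 3.96 and 180 ± 2.24. Among the other transcripts a fragment of 413 bases, Cald1-207, went from 171 to 75.5 TPM and held 17.3% ± 0.953 of control TPM but 0.750% of the counts, so the TPM of Cald1 is raised by short transcripts with few reads. By share of counts these 5 forms held 95.1% ± 0.364 and 92.3% ± 0.474, and Cald1-205 2.55% ± 0.0983 and 4.82% ± 0.562.

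**Figure D4:**
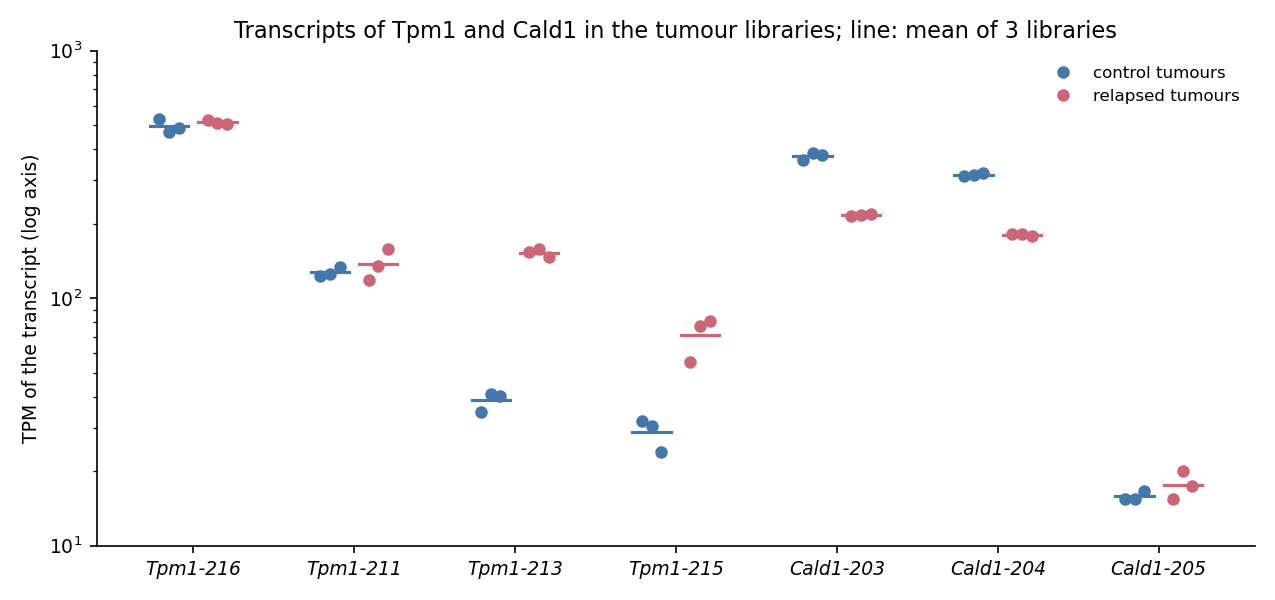
TPM (log axis) of 4 Tpm1 and 3 Cald1 transcripts in each control and relapsed tumour library, with a line at the mean of 3. Tpm1-213 and Tpm1-215 are higher in each relapsed library, Cald1-203 and Cald1-204 are lower, and Tpm1-216, Tpm1-211 and Cald1-205 overlap.

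Acta2, Tagln, Myl9 and Tpm2 were each carried mainly by 1 form. Acta2-201 held 91.9% ± 1.14 of Acta2 TPM in control and 92.1% ± 1.25 in relapsed tumours, Tagln-201 96.6% ± 0.760 and 93.9% ± 6.12, Myl9-201 95.9% ± 0.575 and 96.0% ± 1.31, and Tpm2-203 91.0% ± 0.266 and 93.0% ± 0.616. Cnn1 was divided by TPM between Cnn1-205, of 868 bases, at 63.0% ± 5.37 and 58.8% ± 2.42, and Cnn1-201, of 2381 bases, at 35.0% ± 3.60 and 39.6% ± 2.72. By share of counts Cnn1-201 led, with 66.5% ± 3.86 and 70.5% ± 2.09.

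The rest of the contractile programme was followed through 104 related genes in 5 lists, of which 4 are described, tested with edgeR across the whole table. At relapse 95 were tested: 40 rose, 40 fell and 15 did not pass, with a median log2 fold change of -0.01, against 36.6% higher, 36.9% lower and a median of 0.0019 over all genes. With limma on log2(TPM + 1) this split was 28 and 44, so 38.9% of the related genes called were higher. Over all genes that fit called 3518 higher and 5129 lower, or 40.7% higher, so the whole table moved the same way. Of 22 other smooth muscle genes, 16 were tested, of which 9 fell and 6 rose, with a median of -0.28. With limma on TPM 8 fell and 3 rose, 27.3% of those called being higher, beside the 40.7% over all genes. Actg2, the gamma actin of visceral smooth muscle, fell from 271, 271 and 281 CPM to 11.3, 10.5 and 12.8 CPM (-4.57 ± 0.06, edgeR adjusted p = 2.92e-30). Desmin (Des), the muscle intermediate filament, fell by 2.09 ± 0.07 on the log2 scale (edgeR adjusted p = 1.54e-18), and Lmod1, which nucleates actin in smooth muscle, fell by 2.65 ± 0.21 from 10.5 to 1.67 CPM. Synpo2, an actin-binding protein of the Z-disc, fell by 2.99 ± 0.12. Against these, Mylk, the kinase that phosphorylates Myl9, rose from 7.48, 7.52 and 10.9 to 30.9, 30.1 and 32.7 CPM (1.86 ± 0.11, edgeR adjusted p = 1.12e-13), and nephronectin (Npnt), a matrix ligand of integrin alpha-8, rose by 3.89 ± 0.09. Smoothelin (Smtn) was 0.15 ± 0.05 higher (edgeR adjusted p = 0.0146), a call lost without control replicate 3 (log2 fold change 0.14), without relapse replicate 3 (0.11) and with limma on TPM (0.037). Actg2, Des and Lmod1 thus fell at relapse while the light chain kinase rose.

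Of 19 cofactors and regulators of Srf, 17 were tested at relapse: 11 fell and 4 rose, with a median of -0.43. These were 64.7% and 23.5% of those tested, beside 36.9% and 36.6% of all genes. Mrtfa was at 107 CPM in control and 108 CPM in relapsed tumours (0.01 ± 0.04, edgeR adjusted p = 0.871), a difference whose sign turned with library size as the only scaling (-0.012) and with limma on TPM (-0.030). Mrtfb was -0.17 ± 0.07 (edgeR adjusted p = 0.0288), a call lost without relapse replicate 1 (log2 fold change -0.11), without control replicate 3 (-0.17), with DESeq2 (-0.16) and with limma on TPM (-0.17). Klf4, a repressor of contractile genes, fell from 155, 151 and 150 to 70.8, 70.8 and 66.9 CPM (-1.13 ± 0.04, edgeR adjusted p = 4.50e-19). Fhl1, a LIM-domain protein of muscle, fell from 314 to 34.7 CPM (-3.18 ± 0.05), and the Notch ligand Jag1 by 1.38 ± 0.08, while Gata6 rose by 0.94 ± 0.05. Klf4 was thus lower at relapse beside the lower Acta2, Tagln and Cnn1, and a link between them was not tested.

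Of 23 cytoskeletal targets of Srf and the myocardin-related factors, 11 rose, 9 fell and 3 did not pass at relapse, with a median of 0.07. That is 47.8% higher and 39.1% lower, near the 36.6% and 36.9% over all genes. The crosslinker alpha-actinin 1 (Actn1) rose from 290, 302 and 311 to 967, 980 and 1020 CPM (1.72 ± 0.03, edgeR adjusted p = 5.78e-26). Wdr1, which helps to disassemble actin filaments, rose by 1.38 ± 0.03 and Mical2, which oxidises actin, by 1.00 ± 0.03, while Ankrd1 fell by 1.90 ± 0.03. Of 14 non-muscle paralogs, 8 rose (57.1%), 3 fell (21.4%) and 3 did not pass, with a median of 0.20. Actb rose by 0.57 ± 0.03, Actg1 by 0.65 ± 0.02, Actn4 by 0.66 ± 0.03 and Tagln2 by 0.99 ± 0.04, from 204 to 407 CPM. The non-muscle relatives of Acta2 and Tagln were therefore higher where Acta2 and Tagln were lower.

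With sgIgfbp5, 94 of the 104 related genes were tested in CUUC-G: 18 rose, 60 fell and 16 showed no call, with a median log2 fold change of -0.47, against 34.3% lower, 36.5% higher and a median of 0.06 over all genes. Of the other smooth muscle genes 13 of 16 tested fell and 1 rose, with a median of -1.11. Mylk fell from 32.9, 32.8 and 28.6 to 1.87, 2.11 and 2.25 CPM (-3.91 ± 0.13, edgeR adjusted p = 6.59e-10). Actg2, already at 11.4, 13.3 and 9.63 CPM with sgScr, fell to 0.151, 0.541 and 0.235 CPM (-5.18 ± 0.31). Des fell by 3.47 ± 0.14, Lmod1 by 2.73 ± 0.48, Npnt by 1.86 ± 0.09 and Smtn by 1.01 ± 0.08. The gene that rose was Synm, an intermediate filament protein, from 0.470 to 2.89 CPM, named after its value was seen; with limma on TPM and its filter, 0 rose. Mylk and Npnt, which rose at relapse, fell with sgIgfbp5, and Actg2, Des and Lmod1 fell in both comparisons.

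Of the cofactors and regulators of Srf, 10 of 18 tested rose with sgIgfbp5 and 6 fell (7 and 6 with DESeq2 or without sgIgfbp5 replicate 2, 10 and 3 with limma on TPM and no filter), with a median of 0.23. These were 55.6% and 33.3% of those tested, beside 36.5% and 34.3% of all genes. Klf4 rose from 72.5, 68.6 and 67.3 to 183, 173 and 173 CPM (1.35 ± 0.07, edgeR adjusted p = 1.80e-08). Mrtfa fell by 0.47 ± 0.08 (edgeR adjusted p = 0.000277), a call lost with limma on log2(TPM + 1) and no filter (-0.32, limma adjusted p = 0.0525). Mrtfb was -0.17 ± 0.13 (edgeR adjusted p = 0.282), and -0.0011 without sgScr replicate 1, -0.28 without sgScr replicate 3 and -0.27 without sgIgfbp5 replicate 3. The mesenchymal homeobox gene Prrx1 fell by 2.10 ± 0.10, from 163 to 38.1 CPM, while Notch3 rose by 2.75 ± 0.19 and its ligand Jag1 by 1.09 ± 0.09. Here the repressor Klf4 was higher where Acta2, Tagln and Cnn1 were lower, and again a link was not tested.

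Over all genes 36.5% rose and 34.3% fell with sgIgfbp5, the shares to set beside this list and the paralogs below. Of the 23 cytoskeletal targets, 2 rose with sgIgfbp5, 18 fell and 3 showed no call, with a median of -0.95. The 2 that rose became 1 without sgIgfbp5 replicate 3 and with limma on TPM. Tgfb1i1, a focal adhesion protein also called Hic-5, fell by 2.61 ± 0.08 (edgeR adjusted p = 3.39e-10), the fibronectin receptor chain Itga5 from 479.7 to 119.8 CPM, Ccn1 by 1.54 ± 0.06 and Ccn2 by 2.17 ± 0.08, from 276, 274 and 275 to 63.2, 64.0 and 55.8 CPM. The non-muscle paralogs had 9 of 12 tested lower and 0 higher with edgeR, with a median of -0.84; at an unadjusted p under 0.05 there were 0 higher, with DESeq2 0, and with limma on TPM, with library size as the only scaling or without sgScr replicate 1 there was 1. Actb fell by 0.95 ± 0.07, Actg1 by 1.93 ± 0.07, Tagln2 by 2.15 ± 0.08, Cnn2 by 1.61 ± 0.08 and Tpm4 by 1.41 ± 0.07. Tagln2, Actb and Actg1, which rose at relapse, fell here beside Tagln and Acta2.

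**Figure D5:**
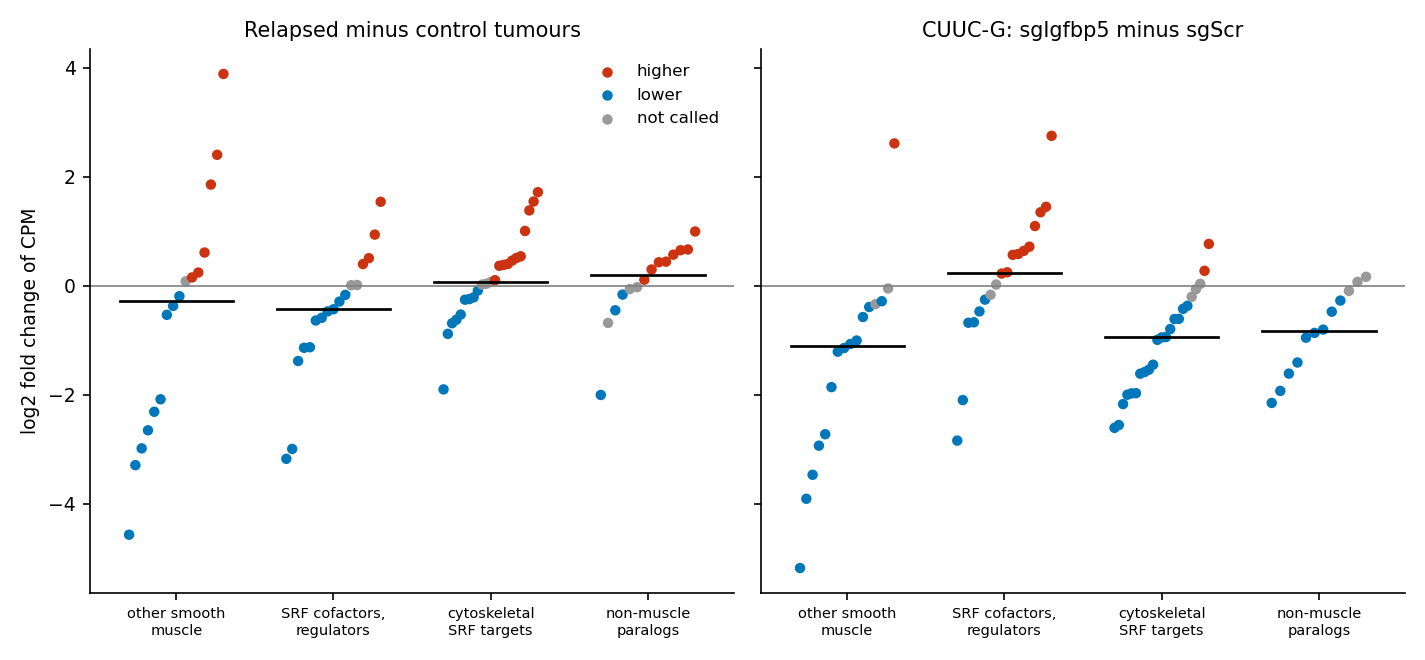
Log2 fold change of CPM of each tested gene of 4 related lists at relapse (left) and with sgIgfbp5 (right); red points were called higher, blue lower and grey neither by edgeR, and a line marks each list's median. At relapse the medians lie between -0.43 and 0.20, and with sgIgfbp5 those of the other smooth muscle genes, cytoskeletal targets and paralogs lie between -1.11 and -0.84.

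Markers of other cell types were summed in TPM over each library. Of the 8 defining smooth muscle markers, which include 5 members, Myh11 and Myocd averaged under 1 TPM in all 4 groups, 3 did so in relapsed and sgScr libraries and 4 in sgIgfbp5 ones. The 14 fibroblast markers summed to 9400 to 9718 TPM in control, 4106 to 4149 in relapsed, 3903 to 4238 in sgScr and 2529 to 3003 in sgIgfbp5 libraries. Their sum was thus lower where Acta2, Tagln, Cnn1 and Myl9 were lower. Fn1, Col1a1 and Col1a2 gave most of it in control tumours, at 2827, 2784 and 2060 TPM, and single markers went both ways. At relapse 9 of the 14 fell and 5 rose (Dcn, Lum, Pdgfra, Fap and S100a4), where 36.9% of all genes fell and 36.6% rose. With sgIgfbp5 10 of 12 tested fell and 2 rose (Col3a1 and Fn1), where 34.3% of all genes fell and 36.5% rose. The part of the fibroblast markers in the results was not tested. Neither was that of the epithelial markers, which summed to 691 to 715 TPM in sgScr and 128 to 149 in sgIgfbp5 cells. Of 8 epithelial markers tested with sgIgfbp5, 6 fell and 1, Gata3, rose, from 0.699 to 8.74 TPM. Pericyte markers (9) summed to 11.99 to 22.1 TPM and immune markers (12) to 3.25 to 10.7 TPM over the 12 libraries, with the pan-leukocyte gene Ptprc at or below 0.0108 TPM on average in each group. Single markers within these sums differed. Of 5 pericyte markers tested at relapse, 2 rose (Rgs5 and Cox4i2) and 1 fell (Pdgfrb). With sgIgfbp5 1 of 5 rose (Pdgfrb) and 3 fell (Rgs5, Mcam and Cox4i2). The 2 immune markers tested, Csf1r and Cd68, rose at relapse and fell with sgIgfbp5. The shares of all genes called are those given above for the fibroblast markers. Endothelial markers (10) summed to 10.98 to 19.4 TPM in control, 43.0 to 47.0 in relapsed, 40.3 to 45.0 in sgScr and 12.2 to 18.9 in sgIgfbp5 libraries, with 8 or 9 of the 10 under 1 TPM in each group. Most of the higher sums was Kdr, a receptor for vascular endothelial growth factor named after its value was seen, at 0.387, 37.9, 35.4 and 1.93 TPM in that order, while the defining marker Pecam1 was at or below 0.364 TPM. Egfl7 went the other way, at 14.7, 6.70, 6.12 and 11.5 TPM in the same order. Of 3 endothelial markers tested at relapse, 1 (Kdr) rose and 2 (Egfl7 and Tek) fell, where 36.6% and 36.9% of all genes did. With sgIgfbp5 1 of 2 tested rose (Egfl7) and 1 fell (Kdr), where 36.5% and 34.3% of all genes did. The part of these genes in the results was not tested. Striated muscle markers (22) summed to 34.9 to 40.6 TPM in control tumours, of which the skeletal actin Acta1 gave 24.5, and to 8.67 to 15.4 TPM in the other groups, with the myogenic factor Myod1 at 0.

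The genes most like each member were found by the distance between log2 CPM profiles, centred over the 12 libraries, among 10411 protein-coding genes tested in both tables. Tagln and Myl9 were each other's nearest gene, at a distance of 0.460. The next nearest to Tagln were Fbln1 and Sec16b, and to Myl9 Sec16b and Pcsk6. Acta2 was nearest to Vegfd, at 0.514, then Pla2r1 and Map1a, and Cnn1 to Bmp6, at 0.850, then S1pr3 and Pygl. These neighbours had lower levels at relapse than in control tumours and the lowest in sgIgfbp5 cells, such as Vegfd at 26.0, 13.4, 12.9 and 2.13 TPM in control, relapsed, sgScr and sgIgfbp5. Cald1 lay nearest to Psme4, at 0.123, then Dis3 and Mpdz, and at least 1.76 from each of the other 7 members compared. Tpm1 lay nearest to Txndc5 (0.149), Cdk1 and Cdk2ap2, and Srf to Rnf19b (0.198), Srebf2 and Tomm40. Tpm2 lay nearest to Srxn1 (0.295), Ube2c and Ripk3. Tpm1 and Srf were 0.413 from each other and at least 3.59 from Acta2. Acta2 was 1.18 from Myl9, 1.203 from Tagln and 2.57 from Cnn1. These distances describe libraries that fall into 4 groups and come with no test.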

How the data were processed

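Poly(A) RNA of the 12 mouse libraries had been sequenced with a stranded kit, per the labels' protocols. The authors deposited estimated counts and TPM for 147828 transcripts in the tumour table and for genes in the CUUC-G table. Salmon is the 1 tool named in the submitters' processing notes, which list GRCm38 among several builds without roles. Expected counts as deposited by the authors were summed by gene and rounded to whole numbers. TPM values, deposited by the authors and scaled by them within each library, were summed by gene. Columns marked mI were read as sgIgfbp5. Counts were fitted over all genes of a table with edgeR 4.0.16 (R 4.3.3; filterByExpr, TMM, quasi-likelihood test, Benjamini-Hochberg adjustment, threshold 0.05), each comparison on its own 6 libraries. Alternatives were DESeq2 1.42.0, other scalings and filters, limma 3.58.1 on log2(TPM + 1) or log2(TPM + 0.1), a replicate block and leaving out each library. Members and gene lists were chosen with earlier results of these data known. Related genes were named by a rule: up to 4 per list and comparison with the smallest p among those whose log2 CPM averaged 2 or more, and always Actg2, Mylk, Smtn, Lmod1, Des, Mrtfa, Mrtfb, Klf4 and Actb. On simulated counts edgeR recovered 41 of 50 genes changed 2-fold among 14373 in the tumour comparison and 35 of 50 among 14553 in CUUC-G. At 1.2-fold it recovered 19 of 50 and 2 of 50. The simulation changed far fewer genes than were called in the data, so its recovery may not hold for them. Replicate numbers were checked and did not pair the samples. The results of the other list, which count in the totals over all related genes, are not reported here.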

Additional observations from a re-analysis of the deposited data

How the results depend on the processing

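Of the counts of called genes, overall and in the related lists together, each stayed within 1.5 times its value under the alternatives run: at relapse 8645 to 11096 genes were called (10559 in the report's fit) and in CUUC-G 8629 to 11340 (10305). With a replicate block 10472 and 10037 genes were called, and 80 and 77 related genes against 80 and 78. Same-numbered libraries correlated at 0.0061 to 0.015 in the tumours and -0.082 to 0.093 in CUUC-G, so the numbers did not pair them. Differences near 0 turned sign. For Mrtfa at relapse the log2 fold change was -0.012 with library size only, -0.011 with no low-count filter, -0.030 with limma on log2(TPM + 1), with or without the TPM filter, -0.030 on log2(TPM + 0.1), and -0.0027 without control replicate 1; leaving out 1 library gave -0.020 (without relapse replicate 3) to 0.033 (without relapse replicate 1). Tpm4 at relapse was 0.11 and became -0.0092 with limma on TPM. Tpm2 at relapse was -0.13 with limma on TPM, and leaving out 1 library gave -0.035 (without control replicate 2) to 0.0037 (without relapse replicate 2). Leaving out 1 library, Cald1 in CUUC-G was -0.00075 without sgScr replicate 3, -0.051 without sgIgfbp5 replicate 1, -0.0015 without sgIgfbp5 replicate 3 and up to 0.11 without sgScr replicate 1. The cause was not tested. Limma on log2(TPM + 1) with the TPM filter moved the median of all genes at relapse to -0.12 (-0.0031 without that filter), and library size only moved it to 0.17 in CUUC-G. Myh11 and Myocd rested on few counts, at most 55 and 16 in a library.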
